A study of Mus musculus with 22 samples.

Results

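The autophagy and lysosome genes of the TFE3 axis were read out as 45 gene symbols, chosen by symbol. They comprise the 3 MiT/TFE transcription factors, the 3 genes of the FLCN complex, and the genes that build autophagosomes, together with 2 cargo receptors and 8 lysosomal proteins. All 45 symbols were present in the gene-count table. Because Atg2a is listed under 2 gene identifiers, they filled 46 of its 34489 gene rows. All 46 rows passed the filter on low counts in every comparison below.

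As background, autophagy encloses cytoplasm in a membrane that forms on demand and then fuses with the lysosome. The ULK1 or ULK2 kinase complex starts the process, the PI3K complex and the WIPI proteins mark the growing membrane, and ubiquitin-like conjugation attaches LC3 and GABARAP proteins to it. TFE3, TFEB and MITF are related basic helix-loop-helix factors that bind E-box sequences in the promoters of lysosomal and autophagy genes. FLCN with FNIP1 or FNIP2 acts through the Rag GTPases so that mTORC1 phosphorylates these factors and holds them in the cytoplasm. In mouse embryonic stem cells, nuclear TFE3 sustains the naive factor Esrrb, and FLCN is needed to leave the naive state. AMPK phosphorylates both ULK1 and FNIP1. Transcript levels, as measured here, do not report where these proteins are or whether they are active.

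Poly(A) RNA was sequenced from 22 libraries of mouse cell lines, 1 library for each combination of line, treatment, day and passage. The study asked whether activators of AMPK turn primed epiblast stem cells (mEpiSCs) back into naive embryonic stem cells. The 2 primed libraries came from Oct4GIP, a 129/Ola line with an Oct4-driven GFP and puromycin transgene, and from 129/MSM, a hybrid line, both kept in FGF2 and Activin A. Oct4GIP was grown on fibronectin and 129/MSM on mouse embryonic fibroblast feeders. For the cultures, Oct4GIP cells were put on feeders and given Basal medium alone, 2iL (MEK and GSK3 inhibitors plus LIF), AICAR or AICAR+LIF. They were harvested whole at d8 (4 libraries) and d16 (4 libraries). The dose of AICAR was 0.5 mM up to day 6 and 1 mM from then on. Reverted cells had 16 days with an activator and were then expanded in 2iL without feeders. The d16+2p and d16+3p libraries (4 in all) were from Oct4GIP treated with AICAR or AICAR+LIF. The 7 d16+10p libraries were from Oct4GIP after AICAR, AICAR+LIF, 50 µM A769662, A769662+LIF or 1 mM metformin with LIF, and from 129/MSM after AICAR or AICAR+LIF. The naive reference was a single library of the Rex1-GFP embryonic stem cell line, which the study kept in 2iL. Naive and reverted cells thus grew in 2iL and primed cells in FGF2 and Activin A, so medium and state cannot be told apart between them. Each line is a single line, and no exact condition had a second library, so the spread within a group includes activators, passages and lines, and a p-value measures a difference against that spread.

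Library totals ran from 438771 to 5290163 counts, and the lowest 3 were both AICAR-treated d8 cultures and the Oct4GIP AICAR d16+10p library. Levels are given as CPM, read counts divided by the library total scaled with a TMM factor, and 3 counts corresponded to between 0.565 and 5.93 CPM. Values of a group are listed in 1 order throughout: Oct4GIP then 129/MSM for primed cells, Basal, 2iL, AICAR, AICAR+LIF for the cultures, and AICAR d16+2p, AICAR+LIF d16+2p, AICAR d16+3p, AICAR+LIF d16+3p for the early reverted libraries. The summed level of 9 naive markers was 3035 to 4230.1 CPM in the d16+10p libraries and 3646 CPM in the naive library, but 17.7 to 33.5 CPM in primed cells, 14.5 to 51.4 CPM at d8 and 66.2 to 79.6 CPM at d16. Pou5f1, Sox2 and Nanog summed to 133 to 315 CPM at d16 and 176 to 227 CPM at d8, below the 574 to 1119 CPM of primed cells. Within this sum Sox2 went the other way, at 52.4 to 58.8 CPM in primed cells, 105 to 224 CPM at d8 and 99.0 to 311 CPM at d16. Pou5f1 was at 461 to 818 CPM in primed cells and at most 35.6 CPM at d8 and 21.5 CPM at d16. Nanog was at 60.3 to 243 CPM in primed cells and at most 75.1 CPM at d8 and 29.0 CPM at d16. The 10 fibroblast markers summed to 3918 to 4238 CPM at d8, 7462 to 55626 CPM at d16 and 148 to 304 CPM at d16+10p. Most of the sum at d16+10p was Sparc, at 127 to 279 CPM. Col1a1 was at 0.408 to 3.77 CPM there, 870 to 1458 CPM at d8 and 2335 to 17011 CPM at d16. Feeder cells and cells of the line cannot be told apart in such libraries, and neither can fewer cells of a type and less RNA per cell. The study lists Rex1-GFP as XX, yet the naive library held 296 counts of Y-linked Ddx3y and 3 counts of Xist, which goes against that entry. Ddx3y had 0 or 1 counts in the primed and reverted Oct4GIP libraries and 2 to 12 counts in each d8 and d16 library.

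E-boxes were looked for in RefSeq promoter windows (GRCm38.p6, 250 bases before to 50 after each start site), because TFE3, TFEB and MITF recognise them. Of the 45 symbols, 38 had an entry, with 45 windows in all. The core CACGTG, which reads the same on both strands, was in 9 of these windows (20%) and in 7.15% of the 32851 windows of all genes. Its longer form TCACGTGA, which contains the core, was in 3 windows (6.67%) and in 0.974% of all windows. The 3 were those of Atg3, which encodes the conjugating enzyme for LC3, of Ctsd, the protease cathepsin D, and of Mcoln1, a lysosomal calcium channel. Lamp1, an abundant glycoprotein of the lysosomal membrane, had the most cores of any member window, 4 that began between 61 and 15 bases before its start site. The stretches below are shown because they hold these cores and the 3 longer motifs, read 5′ to 3′ on the strand of the gene, with the core in capitals.
Lamp1 (chr8:13159041-13159160, + strand): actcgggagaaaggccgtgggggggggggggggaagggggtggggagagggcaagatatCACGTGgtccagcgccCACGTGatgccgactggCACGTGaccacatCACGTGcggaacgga
Ctsd (chr7:142387910-142387935, - strand): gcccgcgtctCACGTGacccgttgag
Mcoln1 (chr8:3500464-3500489, + strand): gcgccccgctCACGTGaccgcggcgc
Atg3 (chr16:45158748-45158773, + strand): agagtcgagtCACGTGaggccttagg
A match in such a window is a description of the letters, and binding was not measured here.

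Between reverted d16+10p cells and primed mEpiSCs, 12 member rows were higher and 11 lower (23 of 46, 50%) at a Benjamini-Hochberg adjusted p under 0.05 by the quasi-likelihood test of edgeR. Over all 18739 genes tested, 36.6% were called, 16.7% higher and 19.9% lower. The median log2 fold change was 0.11 over the members and −0.01 over all genes. Between the d8 and d16 cultures and primed cells, 8 rows were higher and 4 lower (26.1%, against 37.5% of all genes, 18.1% higher and 19.4% lower). These comparisons share the same 2 primed libraries. Between reverted cells of all passages and the cultures, 19 rows were higher and 18 lower (80.4%). In that comparison 76.2% of all genes were called, 36.7% higher and 39.5% lower, so the member count lay close to the background. The differences between member shares and background shares were not tested. Differences are given as log2 fold changes, in log2 units, with the first-named group on top. Calls went in both directions within the ULK, ATG, PI3K, LC3 and lysosomal roles.

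**Figure D1:**
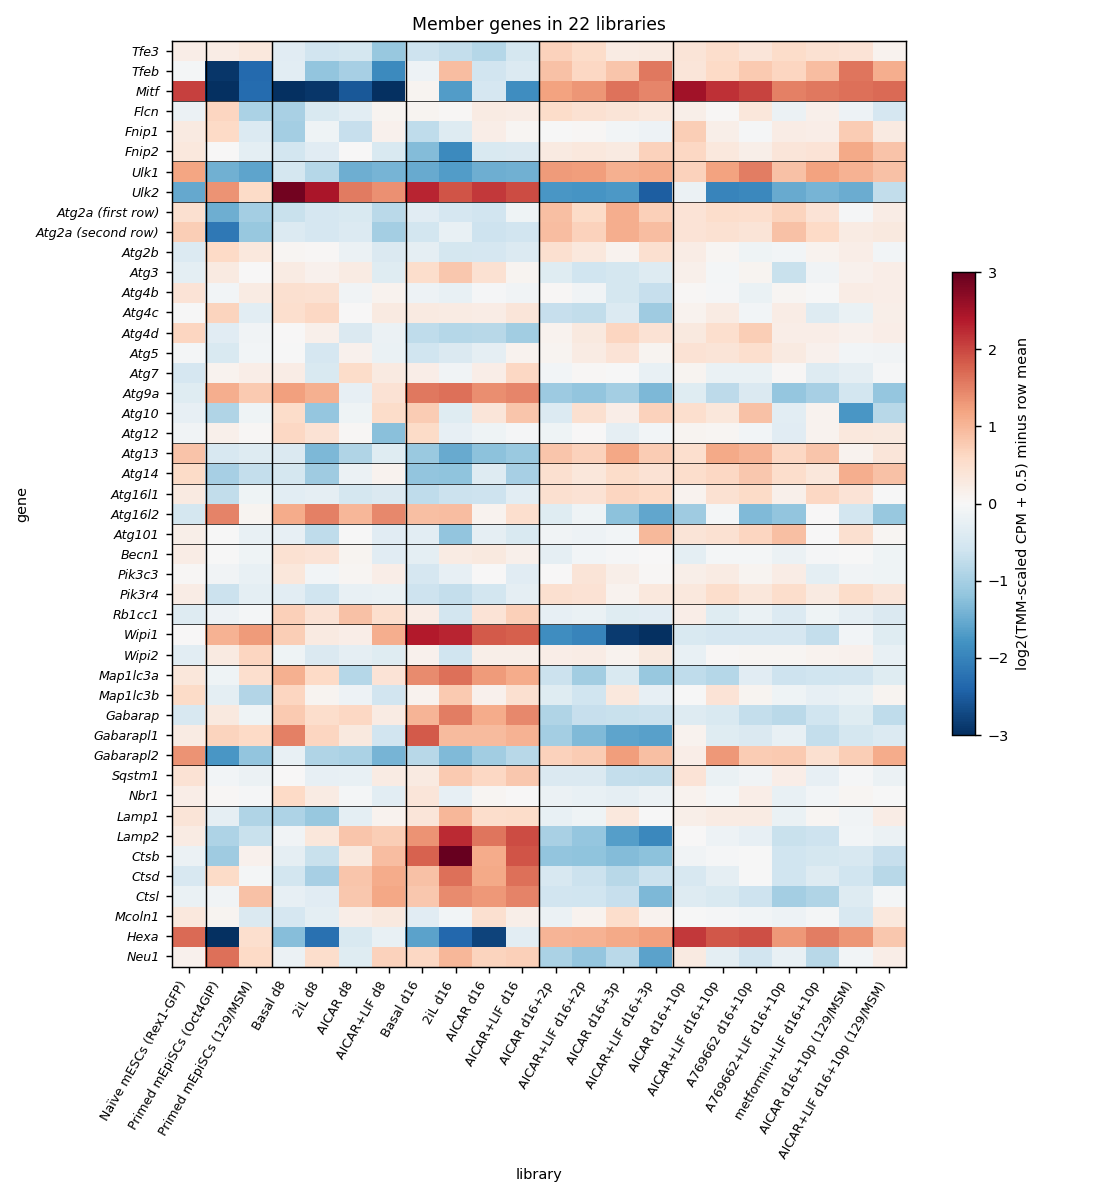
Level of each of the 46 member rows (rows) in each of the 22 libraries (columns, grouped as naive, primed, d8, d16, d16+2–3p and d16+10p), as log2(CPM + 0.5) minus the row mean, with colours ending at 3 and −3 and lower values drawn at the end colour. Ulk1, Gabarapl2, Mitf and Hexa lie above their row mean in the naive and all reverted columns, where Ulk2, Atg9a and Gabarap lie below it.

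Tfe3, the factor tied to naive pluripotency, was expressed in every library. Its levels were 96.7 and 103 CPM in the primed libraries, 65.2, 55.2, 57.8 and 37.6 CPM at d8, 53.7, 50.5, 45.6 and 57.6 CPM at d16 and 135, 123, 98.4 and 100.5 CPM at d16+2–3p. At d16+10p the lowest, median and highest values were 89.8, 111 and 122 CPM, and the naive library had 94.6 CPM. All 8 cultures were thus below every primed, reverted and naive library. Tfe3 was lower in the cultures than in primed cells, by a difference of −0.90 ± 0.16 log2 units (SE, adjusted p = 0.000215). It was higher in reverted cells than in the cultures, by 1.07 ± 0.10 log2 units (SE, adjusted p = 8.42e-09). Between reverted d16+10p and primed cells the difference was 0.14 ± 0.17 log2 units (SE, adjusted p = 0.543), which did not pass the threshold. Tfe3 lies on the X chromosome (chrX:7762560-7775202, + strand, GRCm38), and Xist was at 456 to 1163 CPM in the cultures, 603 CPM in primed Oct4GIP and 0.308 to 14.5 CPM in reverted Oct4GIP libraries. For comparison, the 731 X-linked genes tested had a median log2 fold change of 0.09 between reverted cells and cultures, against −0.08 over all genes. The part of X dosage in the Tfe3 difference was not tested.

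Tfeb (chr17:47737030-47792419, + strand) and Mitf (chr6:97807052-98021349, + strand), the relatives of Tfe3, were low in primed cells and rose in reverted cells. Tfeb was at 3.68 and 5.68 CPM in the primed libraries, 24.6, 13.3, 15.2 and 7.91 CPM at d8, 27.5, 59.3, 20.6 and 23.0 CPM at d16 and 56.8, 47.9, 55.6 and 94.2 CPM at d16+2–3p. Its lowest, median and highest values at d16+10p were 40.0, 53.6 and 94.8 CPM. No culture or reverted library overlapped the primed libraries, and 2iL d16 was the highest culture. The lowest culture, AICAR+LIF d8, held only 4 counts of Tfeb, and the primed libraries 10 and 18 counts. Its small gap to primed 129/MSM is thus within counting error. Tfeb was higher than in primed cells by 2.28 ± 0.49 log2 units (SE, adjusted p = 0.00117) in the cultures and by 3.62 ± 0.51 log2 units (SE, adjusted p = 1.29e-05) in reverted d16+10p cells. Mitf was at 1.84 and 3.47 CPM in primed cells, 1.81, 2.07, 2.84 and 1.98 CPM at d8, 20.2, 5.61, 13.4 and 4.89 CPM at d16, 44.7, 48.6, 60.3 and 53.8 CPM at d16+2–3p and 55.4, 63.5 and 112 CPM (lowest, median and highest) at d16+10p. Every reverted library was above every culture. The primed levels of Mitf rest on 5 and 11 counts and the d8 levels on 5, 5, 3 and 1 counts. The Mitf difference between reverted d16+10p and primed cells, 4.75 ± 0.52 log2 units (SE, adjusted p = 5.75e-07), was the largest among the members. In the cultures it differed from primed cells by 0.86 ± 0.53 log2 units (SE, adjusted p = 0.215), which did not pass. The naive library had 80.4 CPM of Mitf, inside the range of the d16+10p libraries, and 29.8 CPM of Tfeb, below it. Per kilobase of exon, the level of Tfeb was 0.0621 to 0.0905 of that of Tfe3 in primed cells and 0.597 to 1.39 of it at d16+10p. That of Mitf was 0.0284 to 0.0506 of the Tfe3 level in primed cells and 0.678 to 1.53 of it at d16+10p.

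Flcn, Fnip1 and Fnip2, the negative regulators of these factors, did not pass the test between reverted d16+10p and primed cells. Their differences were −0.04 log2 units (adjusted p = 0.939), 0.18 log2 units (adjusted p = 0.674) and 0.72 log2 units (adjusted p = 0.0724). The primed lines differed in Flcn, at 99.7 and 32.8 CPM in Oct4GIP and 129/MSM, a spread wider than the d16+10p range of 45.1 to 81.0 CPM. Without the Oct4GIP primed library Flcn was higher at d16+10p (0.97 log2 units, adjusted p = 0.0246), and Fnip2 passed with only the groups compared in the fit (0.69 log2 units, adjusted p = 0.0496). In the cultures Flcn and Fnip1 were lower than in primed cells only without the 129/MSM primed library (−0.83 log2 units, adjusted p = 0.0218 and −0.94 log2 units, adjusted p = 0.0355). Fnip1 was at 92.7 and 46.1 CPM in the same 2 libraries and at 59.8 to 104 CPM at d16+10p. Fnip2 was at 71.3 and 57.2 CPM in primed cells, 47.4, 55.6, 71.0 and 51.4 CPM at d8, 28.3, 18.4, 51.2 and 51.6 CPM at d16, 84.9, 87.4, 84.2 and 113 CPM at d16+2–3p and 78.9, 92.9 and 155 CPM (lowest, median and highest) at d16+10p. Every reverted library exceeded every culture. Reverted cells were higher than the cultures in Fnip2 by 1.11 ± 0.18 log2 units (SE, adjusted p = 1.23e-05), and in Fnip1 by 0.44 ± 0.18 log2 units (SE, adjusted p = 0.0279). Flcn differed by 0.36 ± 0.17 log2 units (SE, adjusted p = 0.0618). It passed in the Oct4GIP libraries alone (0.48 log2 units, adjusted p = 0.00167) and by limma voom (adjusted p = 0.0342). Flcn also passed without a filter, with only the groups compared, and without the 3 libraries of lowest totals (adjusted p = 0.0192 to 0.0402). The same held without AICAR+LIF d8 or AICAR+LIF d16+10p of 129/MSM (adjusted p = 0.0171 and 0.0392).

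**Figure D2:**
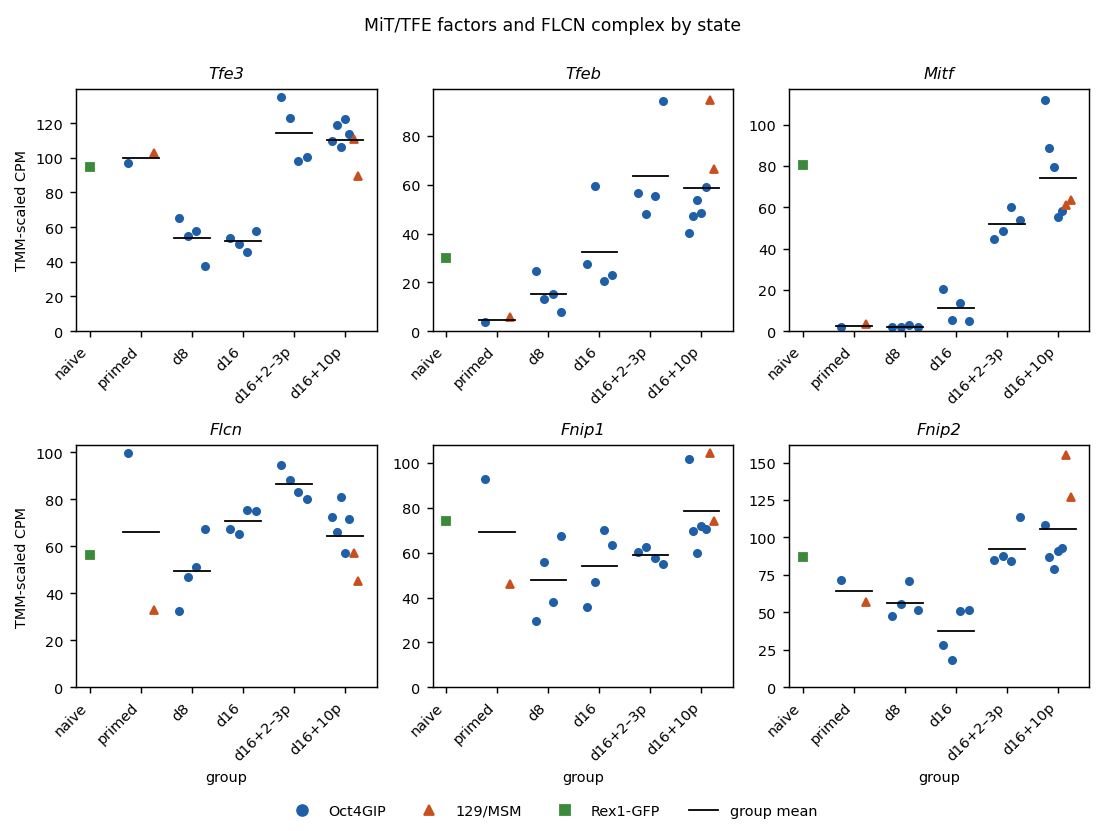
CPM (y axis) of the MiT/TFE factors and the FLCN complex genes in each group (x axis), 1 point a library, with the line shown by colour and shape and the group mean as a bar where a group has over 1 library. Tfe3 dips in the d8 and d16 cultures, whereas Tfeb and Mitf climb from under 6 CPM in primed cells to at least 40.03 CPM in every d16+10p library.

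Among the 5 genes of the ULK and initiation complex, 2 rose, 1 fell and 2 did not pass between reverted d16+10p and primed cells. Ulk1 (chr5:110784488-110810097, - strand), the kinase that AMPK phosphorylates, was at 72.5 and 65.7 CPM in primed cells, 135, 109, 71.0 and 75.1 CPM at d8, 69.0, 61.3, 70.8 and 71.9 CPM at d16 and 474, 466, 412 and 429 CPM at d16+2–3p. It was at 319.7, 405 and 573 CPM (lowest, median and highest) at d16+10p and at 449 CPM in the naive library. Every reverted library lay above every culture and primed library. The difference to primed cells was 2.60 ± 0.25 log2 units (SE, adjusted p = 1.15e-07). Ulk2 (chr11:61775649-61855073, - strand), its close relative, went the other way, at 46.7 and 26.8 CPM in primed cells, 138, 101, 54.0 and 47.5 CPM at d8, 89.7, 67.4, 80.2 and 70.8 CPM at d16, 5.03, 4.94, 5.08 and 2.81 CPM at d16+2–3p and 4.22, 6.13 and 15.9 CPM (lowest, median and highest) at d16+10p. The cultures were above both primed libraries and the reverted libraries below them. The difference to primed cells was −2.31 ± 0.37 log2 units (SE, adjusted p = 6.37e-05) in reverted d16+10p cells and 1.16 ± 0.40 log2 units (SE, adjusted p = 0.0289) in the cultures. The latter call was lost without the 129/MSM primed library (0.76 log2 units, adjusted p = 0.27). Per kilobase of exon, Ulk1 was 1.43 to 2.25 times Ulk2 in primed cells, 0.904 to 1.46 times at d8, 0.708 to 0.936 times at d16, 74.7 to 141 times at d16+2–3p, 18.5 to 122 times at d16+10p and 70.2 times in the naive library. The ratio was thus lower in every primed and culture library than in every reverted library and the naive library.

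The scaffold genes of the same complex were less uniform. Atg13 was at 47.4 and 50.5 CPM in primed cells, 22.9 to 51.4 CPM in the cultures and 71.1 to 149 CPM in reverted cells, whose lowest values were both 129/MSM libraries. It was higher in reverted cells than in the cultures by 1.78 ± 0.15 log2 units (SE, adjusted p = 1.69e-09). Atg101, which binds ATG13, differed by 0.58 log2 units (adjusted p = 0.156) between reverted d16+10p and primed cells. Rb1cc1, the large scaffold also called FIP200, differed by −0.10 log2 units (adjusted p = 0.765) in that comparison and was lower in reverted cells than in the cultures by a difference of −0.71 ± 0.13 log2 units (SE, adjusted p = 7.3e-05).

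Of the 14 rows for the conjugation system and for ATG9 and ATG2, 4 were higher and 3 lower in reverted d16+10p than in primed cells. Atg2a, which carries lipid to the growing membrane, was counted in 2 rows. The row on chromosome 19 (chr19:6241668-6262335, + strand) was at 12.5 and 17.1 CPM in primed cells, 19.8 to 32.0 CPM in the cultures and 34.3 to 76.3 CPM in reverted cells. The other row (ENSMUSG00000106907), which has no place in the annotation used, was at 6.99 and 14.5, at 15.8 to 28.1 and at 38.8 to 69.7 CPM in these groups. Reads may have been divided between the copies, so neither row alone gives the level of the gene. The rows rose by 1.66 ± 0.22 log2 units (SE, adjusted p = 7.53e-06), and by 2.07 ± 0.26 log2 units (SE, adjusted p = 3.26e-06), from primed to reverted d16+10p cells. In the cultures they were higher than in primed cells by 0.76 log2 units (adjusted p = 0.00864) and 1.08 log2 units (adjusted p = 0.00214), calls that were lost without the Oct4GIP primed library (0.56 log2 units, adjusted p = 0.154 and 0.66 log2 units, adjusted p = 0.093). Atg2b, the paralog, was lower than in primed cells by a difference of −0.42 log2 units (adjusted p = 0.0374) in reverted d16+10p cells and by a difference of −0.72 log2 units (adjusted p = 0.000812) in the cultures.

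Atg9a, the membrane protein of the vesicles that seed autophagosomes, was at 53.3 and 43.6 CPM in primed cells, 59.0, 53.1, 20.8 and 33.6 CPM at d8, 75.8, 79.8, 66.8 and 69.6 CPM at d16 and 9.49 to 19.4 CPM over the 11 reverted libraries. No reverted library reached the lowest culture, which was AICAR d8. The difference between reverted d16+10p and primed cells was −1.72 ± 0.26 log2 units (SE, adjusted p = 2.63e-05). Some of its exon bases are shared with a gene model on the same strand, Gm29253. The pair Atg16l1 and Atg16l2 diverged: Atg16l1, which brings the conjugation enzyme to the membrane, rose by 0.75 log2 units (adjusted p = 0.00518), and Atg16l2 fell by 1.68 log2 units (adjusted p = 0.00301). Atg16l2 was at 26.8 and 9.79 CPM in the primed lines, and the call was lost without the Oct4GIP primed library (−0.78 log2 units, adjusted p = 0.313). Atg4d, a protease that trims GABARAP proteins, was higher by 0.57 log2 units (adjusted p = 0.0378). The related protease genes Atg4b and Atg4c and the enzyme genes Atg3 and Atg7 did not pass between reverted d16+10p and primed cells, with differences between −0.30 and −0.05 log2 units. Atg5, Atg10 and Atg12, the core of the conjugation system, did not pass either, with 0.49 log2 units (adjusted p = 0.0872), 0.57 log2 units (adjusted p = 0.488) and −0.03 log2 units (adjusted p = 0.963). Atg5 passed in the Oct4GIP libraries alone (0.81 log2 units, adjusted p = 0.044).

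The PI3K complex and the WIPI genes, which make and read the lipid mark on the membrane, gave 2 higher and 2 lower calls of 6 in the same comparison. Atg14, which directs the complex to autophagy, was at 15.4 and 18.6 CPM in primed cells, 13.2 to 33.6 CPM in the cultures and 39.1 to 66.2 CPM in reverted cells. It rose by 1.57 ± 0.28 log2 units (SE, adjusted p = 0.000179), with no overlap between the groups. Pik3r4, the regulatory subunit, was higher by 0.88 log2 units (adjusted p = 0.000291), whereas Becn1 and the catalytic subunit gene Pik3c3 did not pass, at −0.04 log2 units (adjusted p = 0.901) and 0.21 log2 units (adjusted p = 0.425). Wipi1 (chr11:109573331-109611967, - strand), a reader of the lipid mark, had the widest course of this group. It was at 34.2 and 40.1 CPM in primed cells, 27.5, 19.9, 18.9 and 35.6 CPM at d8, 87.6, 82.2, 59.6 and 58.0 CPM at d16 and 4.14, 3.80, 1.82 and 1.41 CPM at d16+2–3p, then at 9.83, 11.4 and 15.5 CPM (lowest, median and highest) at d16+10p. The naive library had 16.4 CPM. The 4 groups d16, d16+2–3p, d16+10p and primed did not overlap one another. Wipi1 was lower in reverted d16+10p than in primed cells by a difference of −1.64 ± 0.26 log2 units (SE, adjusted p = 4.54e-05). Wipi2 was lower by a difference of −0.47 log2 units (adjusted p = 0.036) in reverted d16+10p cells and by a difference of −0.61 log2 units (adjusted p = 0.00702) in the cultures, where the call was lost without the 129/MSM primed library (−0.46 log2 units, adjusted p = 0.112).

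The LC3 and GABARAP genes encode the small proteins that are joined to lipid and bind cargo, and 1 of 5 rose and 3 fell between primed and reverted d16+10p cells. Gabarapl2 (chr8:111940703-111953612, + strand) was at 29.1 and 43.0 CPM in primed cells, 85.1, 53.1, 51.1 and 37.6 CPM at d8, 55.4, 39.3, 48.1 and 55.7 CPM at d16, 161, 169, 237 and 184 CPM at d16+2–3p and 114, 168 and 245 CPM (lowest, median and highest) at d16+10p. All 11 reverted libraries exceeded all cultures and primed libraries, and the difference to primed cells was 2.27 ± 0.31 log2 units (SE, adjusted p = 8.98e-06). In Gabarap the reverted libraries were instead below all primed and culture libraries. It was at 131 and 96.6 CPM in primed cells, 184, 155, 163 and 127 CPM at d8, 218, 309.9, 232 and 289 CPM at d16, 57.1, 65.8, 66.8 and 67.5 CPM at d16+2–3p and 61.1, 70.3 and 82.5 CPM (lowest, median and highest) at d16+10p. It was lower than in primed cells by a difference of −0.67 ± 0.17 log2 units (SE, adjusted p = 0.00352) after reversion. In the cultures it was higher by 0.84 ± 0.18 log2 units (SE, adjusted p = 0.00125), a call lost without the 129/MSM primed library (0.59 log2 units, adjusted p = 0.0588). Per kilobase of exon, Gabarapl2 was 0.176 to 0.352 times Gabarap in primed cells, 0.101 to 0.202 times at d16, 1.11 to 2.70 times at d16+10p and 2.63 times in the naive library.

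Gabarapl1 was at 57.0 and 54.0 CPM in primed cells and 21.7 to 38.3 CPM at d16+10p, a difference of −0.998 ± 0.32 log2 units (SE, adjusted p = 0.0175). Without the Oct4GIP or the 129/MSM primed library this call was lost (−0.96 log2 units, adjusted p = 0.105 and −1.04 log2 units, adjusted p = 0.0598). Map1lc3a differed by −0.82 ± 0.30 log2 units (SE, adjusted p = 0.0377), and 4 of its 9 fits without 1 library lost the call (without AICAR d16+10p, AICAR+LIF d16+10p, A769662+LIF d16+10p or the 129/MSM primed library, adjusted p = 0.0519 to 0.408). Map1lc3b, the LC3 form most used as an autophagy marker, did not pass in that comparison (0.58 log2 units, adjusted p = 0.113). It was higher in the cultures than in primed cells by 0.82 log2 units (adjusted p = 0.0274), again not without the 129/MSM primed library (0.50 log2 units, adjusted p = 0.312). The receptors Sqstm1, which encodes p62, and Nbr1 differed by 0.13 log2 units (adjusted p = 0.632) and 0.01 log2 units (adjusted p = 0.996) between reverted d16+10p and primed cells and did not pass. Sqstm1 was at 171 to 182 CPM in primed cells, 164 to 227 CPM at d8, 234 to 339 CPM at d16, 116 to 143 CPM at d16+2–3p and 162 to 257 CPM at d16+10p.

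**Figure D3:**
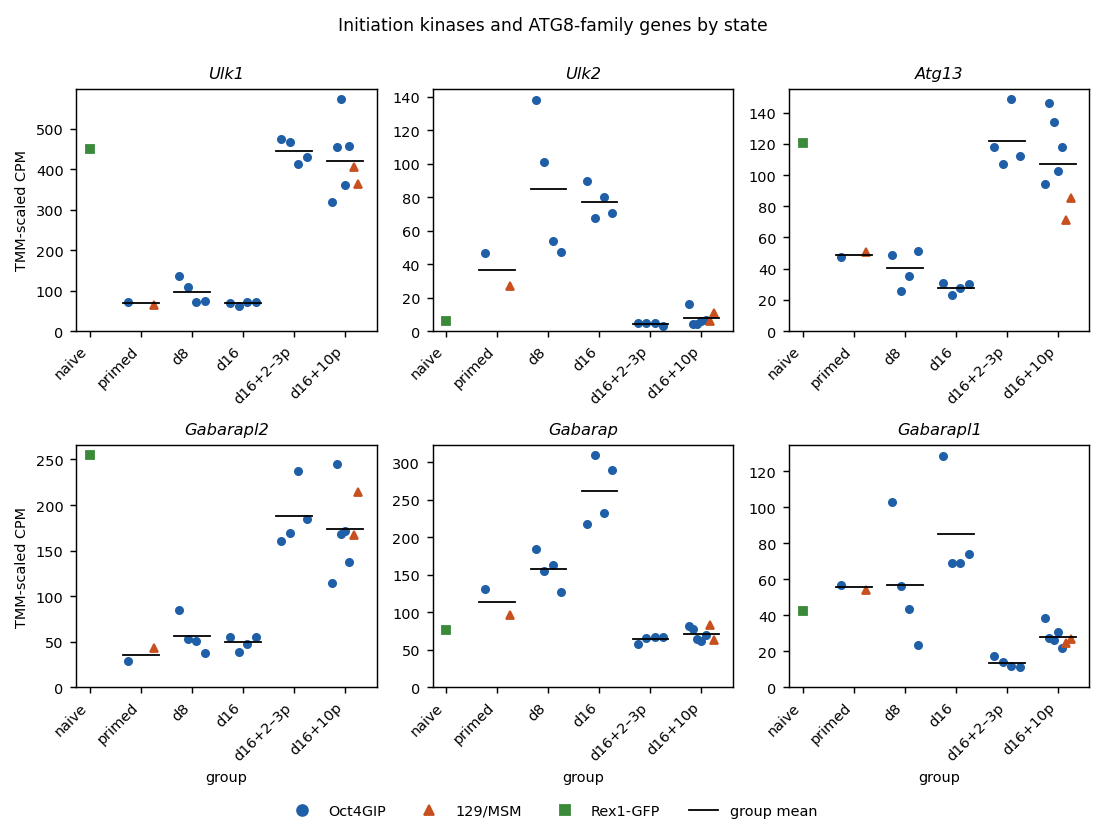
CPM (y axis) of Ulk1, Ulk2, Atg13, Gabarapl2, Gabarap and Gabarapl1 in each group (x axis), 1 point a library, with the line shown by colour and shape and the group mean as a bar where a group has over 1 library. Ulk1, Atg13 and Gabarapl2 separate naive and reverted libraries (high) from primed and culture libraries (low), and Ulk2 and Gabarap run the other way.

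The 8 lysosomal genes gave 1 higher and 2 lower calls between reverted d16+10p and primed cells, and 2 higher and 1 lower between the cultures and primed cells. Lamp2 (chrX:38401357-38456454, - strand), a membrane glycoprotein encoded on the X chromosome, was at 100.4 and 119.7 CPM in primed cells, 178, 245, 340.0 and 322 CPM at d8, 493, 909, 588 and 742 CPM at d16, 98.2, 85.5, 60.6 and 50.2 CPM at d16+2–3p and 121, 169 and 194 CPM (lowest, median and highest) at d16+10p. Every culture was above both primed libraries, and the difference was 1.96 ± 0.30 log2 units (SE, adjusted p = 5.5e-05). Ctsb (chr14:63122462-63145923, + strand), the cysteine protease cathepsin B, was at 122 and 279 CPM in primed cells, 212, 161, 316 and 490.4 CPM at d8, 878, 2767, 559 and 956 CPM at d16, 112, 110.2, 103 and 109.6 CPM at d16+2–3p and 159.5, 183 and 254 CPM (lowest, median and highest) at d16+10p. The value in 2iL d16 stood far above all others. Ctsb was higher in the cultures than in primed cells by 1.61 ± 0.48 log2 units (SE, adjusted p = 0.0126), a call lost without the Oct4GIP primed library (1.13 log2 units, adjusted p = 0.195), and was lower in reverted cells than in the cultures by a difference of −2.04 ± 0.26 log2 units (SE, adjusted p = 5.91e-07). The exons of Ctsb overlap those of Fdft1 on the opposite strand. Ctsd and Ctsl, 2 further cathepsins, were lower in reverted cells than in the cultures by a difference of −1.39 log2 units (adjusted p = 7.79e-06) and −1.52 log2 units (adjusted p = 8.17e-07). Against primed cells Ctsl was lower at d16+10p by a difference of −0.99 ± 0.32 log2 units (SE, adjusted p = 0.0194), which was lost without the 129/MSM primed library (−0.43 log2 units, adjusted p = 0.486).

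Neu1, a sialidase, was at 77.6 and 37.3 CPM in primed cells, 18.9 to 48.9 CPM in the cultures, 12.4, 10.6, 13.8 and 7.73 CPM at d16+2–3p and 13.4, 20.7 and 29.4 CPM (lowest, median and highest) at d16+10p. It was lower in reverted d16+10p than in primed cells by a difference of −1.43 ± 0.29 log2 units (SE, adjusted p = 0.000574), and without the Oct4GIP primed library by a difference of −0.81 log2 units (adjusted p = 0.113). The lower level in the cultures (−0.75 log2 units, adjusted p = 0.0481) was lost in 7 of 10 fits that left out 1 library (Oct4GIP primed, Basal d8, AICAR d8 or any d16 library, adjusted p = 0.0514 to 0.854). Lamp1 and Mcoln1 did not pass in either comparison with primed cells. For Lamp1 this depended on the fit: it was higher at d16+10p by limma voom (0.68 log2 units, adjusted p = 0.0295), with only the groups compared, without the 3 libraries of lowest totals, and without primed Oct4GIP or A769662+LIF d16+10p (adjusted p = 0.019 to 0.0485). It was higher in the cultures by DESeq2 (0.70 log2 units, adjusted p = 0.0273), with at least 10 counts in every library, and without Basal d8 or 2iL d8 (adjusted p = 0.0381 to 0.0432). Hexa (chr9:59539540-59565109, + strand), which encodes a lysosomal glycosidase chain, had 0 counts among 2584715 in the Oct4GIP primed library, where 3 counts would be 1.10 CPM. The 129/MSM primed library held 166 counts (52.4 CPM). Hexa was at 14.8, 7.47, 26.5 and 31.6 CPM at d8, 11.7, 6.82, 4.99 and 29.4 CPM at d16, 75.1, 76.4, 81.3 and 87.5 CPM at d16+2–3p and 65.1, 108 and 162 CPM (lowest, median and highest) at d16+10p. Against the limit of 3 counts in its own primed line, the 5 Oct4GIP libraries at d16+10p averaged at least 115.5-fold higher. In 129/MSM the d16+10p mean was 1.501 times the primed level. The call over both lines (2.09 ± 0.79 log2 units, SE, adjusted p = 0.0426) was lost without the Oct4GIP primed library (1.11 log2 units, adjusted p = 0.227) and in 4 more fits that left out AICAR, AICAR+LIF, A769662 or metformin+LIF d16+10p of Oct4GIP (adjusted p = 0.0544 to 0.0622). Between cultures and primed cells Hexa did not pass (−0.80 log2 units, adjusted p = 0.396), and the direction depended on the primed library. Against the limit of 3 counts in primed Oct4GIP the d8 and d16 means were at least 18.23-fold and 11.98-fold higher. Without that library the difference was −1.79 log2 units, which sets Oct4GIP cultures against primed 129/MSM cells. Reverted cells were above the cultures in Hexa by 2.64 ± 0.47 log2 units (SE, adjusted p = 3.26e-05), without overlap.

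**Figure D4:**
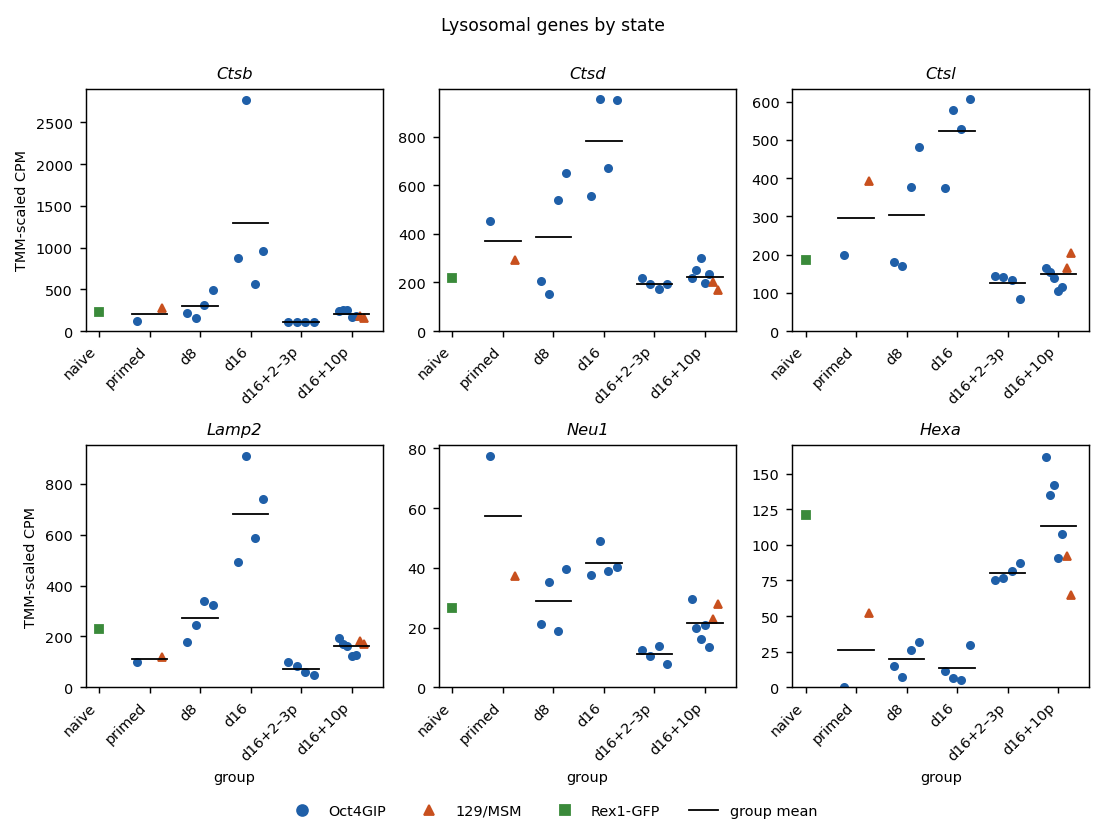
CPM (y axis) of Ctsb, Ctsd, Ctsl, Lamp2, Neu1 and Hexa in each group (x axis), 1 point a library, with the line shown by colour and shape and the group mean as a bar where a group has over 1 library. The cathepsins and Lamp2 peak at d16, where 2iL holds 2767 CPM of Ctsb, and Hexa is at 0 in primed Oct4GIP and at 65.1 CPM or more in every d16+10p library.

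Fibroblast and macrophage markers were set beside the lysosomal genes. Of the 10 fibroblast markers, 7 were higher in the cultures than in primed cells, all 10 were lower in reverted cells than in the cultures, and 8 were lower in reverted d16+10p than in primed cells. Their summed level, of which Sparc was 165 to 560 CPM, was 229.9 CPM in primed Oct4GIP and 1385 CPM in primed 129/MSM. At d16 it was highest in 2iL (55626 CPM), the library with the most Ctsb, Lamp1 and Lamp2, whereas Ctsl was highest in AICAR+LIF d16 (607 CPM, against 579 CPM in 2iL d16). Across the d8 cultures the fibroblast sums ran only from 3918 to 4238 CPM, while Ctsb ran from 161 to 490 CPM. The 8 macrophage markers summed to 29.1 to 69.5 CPM in primed cells, 5.39 to 241 CPM at d8, 11.6 to 103 CPM at d16, 7.10 to 16.9 CPM at d16+2–3p and 5.88 to 18.8 CPM at d16+10p. Lyz2 alone ran from 0.415 to 198 CPM at d8 and from 4.01 to 74.1 CPM at d16. The macrophage sum in 2iL d16 was 11.6 CPM. At d8 it was 43.1, 5.39, 141 and 241 CPM in Basal, 2iL, AICAR and AICAR+LIF. Ctsb, Ctsd, Ctsl, Lamp1 and Hexa ranked these d8 libraries in the same order, whereas Lamp2, Mcoln1 and Neu1 did not. Adgre1 and Lyz2 were at 0 counts in all reverted libraries, whereas Cd68 was at 5.10 to 16.9 CPM there and at 4.71 to 18.8 CPM at d16. Of the 5 macrophage markers tested, 2 were lower in reverted d16+10p than in primed cells, and 4 were lower in reverted cells than in the cultures. They did not pass between cultures and primed cells (median 0.52 log2 units), nor did those tested between d16 and d8 (median −0.26 log2 units). The part of these cells in the lysosomal differences was not tested.

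From d8 to d16 the cultures gained lysosomal transcripts. By edgeR, 12 member rows were higher and 2 lower at d16 (14 of 46, 30.4%), against 31.2% of the 14026 genes tested (18.1% higher and 13.1% lower). Of the 8 lysosomal genes 5 rose, namely Ctsb (2.13 log2 units, adjusted p = 0.0338), Lamp2 (1.39 log2 units, adjusted p = 0.00846), Ctsd (1.28 log2 units, adjusted p = 0.0411), Lamp1 (1.20 log2 units, adjusted p = 0.019) and Ctsl (0.94 log2 units, adjusted p = 0.0359). Lamp2 and Wipi1 (1.58 log2 units, adjusted p = 0.00407) kept their calls in all 8 fits without 1 library. Mitf and Tfeb were higher at d16 by 2.48 log2 units (adjusted p = 0.0161) and 1.08 log2 units (adjusted p = 0.045), and Fnip2 was lower by a difference of −0.69 log2 units (adjusted p = 0.0385). The d8 libraries held only 1 to 5 counts of Mitf each. Atg4d was also lower (−0.76 log2 units, adjusted p = 0.02), and Map1lc3a was higher (1.02 log2 units, adjusted p = 0.0223). In the list of 44 other lysosomal proteins (45 rows), 33 were higher at d16 and the other 12 did not pass, with a median log2 fold change of 1.04, against 0.01 over all genes. The largest were Ctsk (3.54 log2 units, adjusted p = 0.0131), Naglu (2.36 log2 units, adjusted p = 0.00153), Ctso (2.23 log2 units, adjusted p = 0.00388) and Arsb (2.19 log2 units, adjusted p = 0.00289). Of the fibroblast markers 7 of 10 were also higher at d16. Scaled to library totals alone, without TMM factors, the median over all genes moved from 0.01 to −0.13 log2 units, the share of higher among the called genes from 57.9% to 45.1%, and the member calls to 11 higher and 6 lower. Leaving out Basal d8, 2iL d8, AICAR d8 or AICAR+LIF d16 reduced the member calls to 6, 3, 8 and 8. Those of Tfeb and Fnip2 were each lost in 7 of 8 fits without 1 library (adjusted p up to 0.146 and 0.105), with exceptions only for Basal d16 and AICAR+LIF d8 in turn. With the 4 treatments as block, the member calls fell to 8, and those of Ctsb (adjusted p = 0.0555), Ctsd (adjusted p = 0.0769), Tfeb (adjusted p = 0.0949), Fnip2 (adjusted p = 0.0789) and Atg4d (adjusted p = 0.0504) were among those lost. Without Basal d8 or 2iL d8 the calls of Mitf, Lamp1, Ctsb and Ctsd were lost (adjusted p = 0.0643 to 0.139), those of Ctsb and Ctsd also without AICAR d8 or AICAR+LIF d16 (adjusted p = 0.0558 to 0.0721), that of Ctsd without Basal d16 (adjusted p = 0.0592), and those of Map1lc3a and Atg4d without 2iL d8 (adjusted p = 0.0787 and 0.0649).

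**Figure D5:**
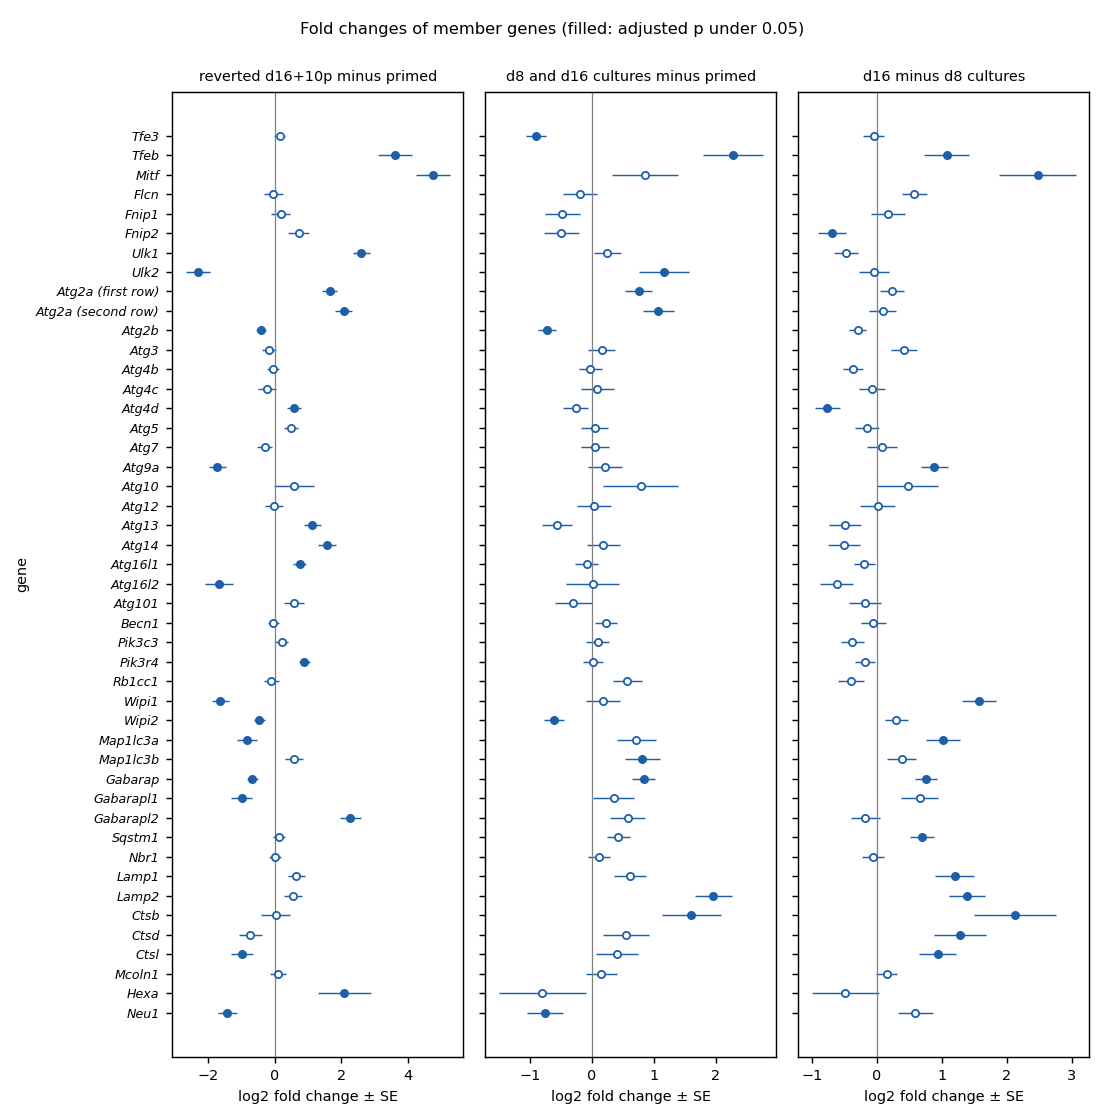
Log2 fold change ± SE (x axes) of the 46 member rows (y axis) in 3 comparisons: reverted d16+10p minus primed, d8 and d16 cultures minus primed, and d16 minus d8 cultures, with filled points where the adjusted p was under 0.05. Mitf, Tfeb, Ulk1 and Gabarapl2 lie farthest right in the left panel, and Mitf, Ctsb, Wipi1 and Lamp2 in the right panel; the x axes differ in range.

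AICAR in the cultures was set against Basal medium and 2iL at the same days, before reverted cells were expanded. The side with AICAR pooled AICAR and AICAR+LIF, and the other side pooled Basal and 2iL, which holds LIF and the MEK and GSK3 inhibitors. LIF and these inhibitors had no term in the fit, so the contrast does not isolate the activator. A single member row of 46 (2.17%) passed, against 9.6% of all genes, 3.54% higher and 6.06% lower. Of the genes called, 36.9% were higher, and 54.4% without TMM factors. Mcoln1, the lysosomal calcium channel gene, was at 56.8, 61.3, 69.0 and 55.7 CPM with AICAR and at 35.1, 40.6, 39.4 and 46.5 CPM without. The groups did not overlap, and the difference was 0.63 ± 0.16 log2 units (SE, adjusted p = 0.047). It was lost in 7 of 8 fits without 1 library, 2iL d16 being the exception (adjusted p = 0.071 to 0.124 in the 7). Macrophage markers summed to 62.4 to 241 CPM with AICAR and 5.39 to 43.1 CPM without. In these sums Lyz2 alone reached 198 CPM at d8 and 74.1 CPM at d16. Ptprc, Csf1r, Adgre1, C1qa, C1qb and Tyrobp were each at most 7.58 CPM at d8 and 3.39 CPM at d16. Among the genes tested, 1 of 2 macrophage markers was higher with AICAR, as were 2 of 10 fibroblast markers and 2 of the 3 pluripotency genes. Their part in the result was not tested. Tfe3, Tfeb and Mitf differed by −0.11 log2 units (adjusted p = 0.705), −0.82 log2 units (adjusted p = 0.159) and −0.31 log2 units (adjusted p = 0.754), and Ulk1 and Ulk2 by a difference of −0.24 log2 units (adjusted p = 0.403) and −0.56 log2 units (adjusted p = 0.154). At d8 the cathepsin D gene was at 539 and 653 CPM with AICAR and 208 and 152 CPM without, whereas at d16 the ranges overlapped (673 and 951 against 554 and 957 CPM). A test of the difference between the days, added after the data were seen, found an interaction in 0 members by edgeR (6 at an unadjusted p under 0.05) and in 21 of 15473 genes (0.136%). For Ctsd it was −1.76 ± 0.46 log2 units (SE, adjusted p = 0.16, unadjusted p = 0.00489). Without 2iL d16, Ctsd, Ctsl and Lamp2 were higher and Gabarapl1 lower with AICAR, beside Mcoln1 (5 rows). Bnip3, a mitophagy receptor outside the member list, fell most among the further autophagy genes, from between 48.1 and 139.8 CPM to between 8.52 and 9.99 CPM (−3.17 log2 units, adjusted p = 0.00552).

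Expansion in 2iL was followed by setting the 7 d16+10p libraries against the 4 at d16+2–3p. By edgeR, 6 member rows were higher and 0 lower (13%, against 9.35% of all genes, 4.75% higher and 4.61% lower). At an unadjusted p under 0.05 there were 12 rows, and DESeq2 and limma voom called 3 and 2 rows lower. Wipi1 rose by 2.06 ± 0.28 log2 units (SE, adjusted p = 0.000166), and Lamp2 by 1.12 ± 0.22 log2 units (SE, adjusted p = 0.00276), and both stayed called in all 11 fits without 1 library. Gabarapl1, Sqstm1, Neu1 and Atg4c were higher by 1.02, 0.57, 0.93 and 0.76 log2 units (adjusted p = 0.0274, 0.0174, 0.0302 and 0.0329). These 4 calls were lost in 4, 2, 5 and 7 of the 11 fits. That of Gabarapl1 was lost without AICAR+LIF d16+2p, AICAR d16+3p, AICAR+LIF d16+3p or AICAR d16+10p (adjusted p = 0.0543 to 0.0952), and that of Sqstm1 without AICAR d16+3p or AICAR+LIF d16+3p (adjusted p = 0.0688 and 0.0698). Those of Neu1 and Atg4c were lost without AICAR d16+2p, AICAR+LIF d16+2p, AICAR+LIF d16+3p, AICAR d16+10p or AICAR+LIF d16+10p of 129/MSM (adjusted p = 0.0546 to 0.127), and that of Atg4c also without AICAR+LIF d16+10p or A769662+LIF d16+10p of Oct4GIP (adjusted p = 0.061 and 0.0593). Leaving out AICAR+LIF d16+2p, AICAR+LIF d16+3p or AICAR d16+10p brought the member calls to 3, 2 and 3. Tfe3, Tfeb and Mitf differed by −0.05 log2 units (adjusted p = 0.872), −0.12 log2 units (adjusted p = 0.864) and 0.51 log2 units (adjusted p = 0.28). In the list of other lysosomal proteins, 9 of 45 rows were higher and 1 lower. Manba, a mannosidase, fell from 223–308 CPM to 15.9–105 CPM (−2.59 log2 units, adjusted p = 0.000146). The fibroblast markers summed to 221 to 353 CPM at d16+2–3p, with Sparc alone at 211 to 257 CPM, and 1 of 10 was higher there than at d16+10p.

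The lines were compared in 3 matched conditions (primed, AICAR d16+10p and AICAR+LIF d16+10p). No member row passed by edgeR, and 15 of 12954 genes did (0.116%, with 0.0926% higher and 0.0232% lower). At an unadjusted p under 0.05 there were 2 member rows, and DESeq2 and limma voom called none. Tfe3 differed by −0.10 log2 units (adjusted p = 0.914) between 129/MSM, listed as XY, and Oct4GIP, listed as XX. Tfeb and Flcn differed by 0.82 log2 units (adjusted p = 0.328) and −0.83 log2 units (adjusted p = 0.371). Leaving out either primed library reduced the fit to the reverted cells, where Tfeb was higher (0.86 log2 units, adjusted p = 0.0444) and Hexa lower (−0.92 log2 units, adjusted p = 0.0111) in 129/MSM. LIF was compared in 6 pairs of AICAR+LIF and AICAR libraries. In the d16+2p, d16+3p and d16+10p pairs both sides had been expanded in 2iL, which contains LIF. Only the d8 and d16 pairs differed in LIF at harvest, and both d8 libraries are among the 3 of lowest totals. The test therefore cannot show that LIF was without effect in the cultures. No member and no gene of 12899 passed by edgeR (0%), and DESeq2 and limma voom also called none. At an unadjusted p under 0.05 there were 462 genes and 1 member row. Tfe3 differed by −0.05 ± 0.11 log2 units (SE) between the pairs and Ulk1 by 0.08 ± 0.09 log2 units (SE).

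Further genes of the pathway were read as lists, beside 36.6% of all genes called between reverted d16+10p and primed cells. Among 16 V-ATPase symbols (17 rows), which acidify the lysosome, 4 rows were higher and 3 lower in reverted d16+10p than in primed cells, with Atp6v1a at 0.82 log2 units (adjusted p = 0.00222) and Atp6v1g1 at −0.77 log2 units (adjusted p = 0.0014). Among 20 mTORC1 and Rag genes, 2 were higher and 1 lower, namely Mlst8 (1.04 log2 units, adjusted p = 0.0113), Tsc2 (0.89 log2 units, adjusted p = 0.00416) and the lysosomal amino acid sensor Slc38a9 (−1.34 log2 units, adjusted p = 0.00303). Among 20 further autophagy symbols (23 rows), 1 was higher and 5 lower, namely Ambra1 (0.73 log2 units, adjusted p = 0.00195) upwards, and downwards among others the SNARE gene Stx17 (−1.82 log2 units, adjusted p = 3.25e-05). The other lysosomal proteins gave 10 higher and 16 lower calls of 45. Glb1 (1.81 log2 units, adjusted p = 5.99e-05) rose, and Naglu (−3.94 log2 units, adjusted p = 5.25e-06) and Arsa (−2.44 log2 units, adjusted p = 1.98e-06) fell. Between cultures and primed cells the same list had 20 higher and 3 lower rows, with the largest difference in each direction in Ctsk (5.06 log2 units, adjusted p = 0.00037) and Ctsc (−2.31 log2 units, adjusted p = 0.0325), beside 37.5% of all genes called, while 7 of 10 fibroblast markers were also higher. The Ctsc direction depends on the primed library, since primed cells held 0 and 35.7 CPM and the cultures 1.24 to 9.89 CPM. Between reverted cells and cultures it had 9 higher and 32 lower (76.2% of all genes called), beside all 10 fibroblast markers lower.

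The single naive library allows no test and was placed against the range of the 7 d16+10p libraries. Of the 46 member rows, 30 lay inside that range, 11 above and 5 below. Those below were Tfeb, Atg2b, Atg7, Pik3r4 and Wipi2. Among those above were Lamp1 (685 against 459.9 to 627 CPM), Lamp2 (229 against 121 to 194 CPM), Map1lc3b (198 against 113 to 177 CPM) and Wipi1 (16.4 against 9.83 to 15.5 CPM). The 5 genes whose log2 CPM followed that of Tfe3 most closely over the 22 libraries were Gm7985, 1190007I07Rik, Cdca5, Oxsr1 and Trim6, with Pearson r between 0.935 and 0.946. The libraries share their states, so this is a description of how the levels ran together across the groups.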

How the data were processed

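mRNA was sequenced from 22 libraries with a stranded poly(A) kit, single reads of 79 cycles. The authors aligned the reads with Bowtie2 2.2.5 to the cDNA and ncRNA of Ensembl release 100 (GRCm38), kept alignments with a mapping quality of at least 1, and deposited whole-number read counts per gene, 1 column a library. Whether the counting used strand is not given in the sources used here, and 15 of the 45 symbols share exon bases with another gene, 3 of them on the same strand. The table had 0 columns of samples outside the 22.

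From the deposited counts, CPM with TMM factors and quasi-likelihood tests were computed with edgeR 4.0.16 in R 4.3.3, after filterByExpr, with Benjamini-Hochberg adjustment over all genes of a fit (18739 in the fit of 6 groups over 22 libraries, 14026 in the cultures, 12954 between lines, 12899 for LIF). The fit of the cultures had terms for AICAR and day, the fit of the lines a block for the condition, and the LIF fit a block for the pair, all taken from the labels. Each member was called at an adjusted p under 0.05. The SE of a log2 fold change is its size divided by the square root of the quasi-likelihood F. The test was tested on simulated data first. The p-values measure only the spread between these libraries, which is not said to come from separate cultures. Limits drawn from 3 counts cover counting error only. Depth ran from 438771 to 5290163 counts, with a median of 2848382, so the shallow libraries are the least precise.

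Members and gene lists were chosen with earlier results of these data known. Tfe3, Tfeb, Mitf, Flcn, Fnip1 and Fnip2 were always named, with up to 8 called members per direction and comparison, those with the largest change and a mean of at least 5 CPM. Up to 4 genes per direction could be named from each other list. Further members were named for their role after their values were seen. One gene of the list of other lysosomal proteins that this rule would name is not reported here. Alternatives were DESeq2 1.42.0, limma 3.58.1 voom, no normalization factors, no filter, at least 10 counts in every library, other samples or terms in the fit, no block, Oct4GIP libraries alone, leaving out each library, and leaving out the 3 with the lowest totals. Tests of line by state and of AICAR by day were added after the data were seen. Likeness to Tfe3 was Pearson r of log2(CPM + 0.5). Positions came from GENCODE M21 and promoter windows from RefSeq (GRCm38.p6), the latter read only for the letters of the motifs. Python 3.11.15, pandas 2.3.3, numpy 2.4.6 and matplotlib 3.10.9 were used for summaries and figures.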

Additional observations from a re-analysis of the deposited data

Results flagged for a closer look

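Single libraries stood apart from their group in 8 of 184 groups of member values examined with Dixon's test at the 95% level, where about 9 would arise by chance (about 1 in 20). Among the 4 libraries at d16+2–3p, AICAR+LIF d16+3p held 113 CPM of Fnip2 (84.2 to 87.4 CPM in the others), 2.81 CPM of Ulk2 (4.94 to 5.08 CPM) and 64.3 CPM of Atg101 (29.3 to 30.9 CPM), and AICAR d16+2p held 57.1 CPM of Gabarap (65.8 to 67.5 CPM). Among the 4 d16 cultures, 2iL held 28.1 CPM of the Atg2a row ENSMUSG00000106907 (21.2 to 22.05 CPM in the others) and 63.7 CPM of Wipi2 (105 to 109.5 CPM), and Basal held 128.5 CPM of Gabarapl1 (69.0 to 74.1 CPM). Among the 7 libraries at d16+10p, A769662+LIF held 15.8 CPM of Atg3 (23.5 to 29.0 CPM in the others).

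The change from primed to reverted d16+10p cells differed between the lines in 2 members by an edgeR interaction test that was added after the data were seen, in which 1156 of 15930 genes passed (7.26%). Each line had 1 primed library in this test. For Ctsb the change in 129/MSM minus that in Oct4GIP was −1.52 ± 0.35 log2 units (SE, adjusted p = 0.0274). Ctsb was at 122 CPM in primed Oct4GIP and at 169 to 254 CPM in its d16+10p libraries, and at 279 CPM in primed 129/MSM and 159.5 and 183 CPM after reversion. The fibroblast markers summed to 229.9 CPM in primed Oct4GIP and 1385 CPM in primed 129/MSM, and their part in the Ctsb result was not tested. For Hexa the difference between the lines was −10.87 ± 1.11 log2 units (SE, adjusted p = 0.000649), a fitted value against 0 counts in primed Oct4GIP that is no bound on the change.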

How the results depend on the processing

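The replicate numbers were given in accession order, so no analysis paired libraries by them. Conditions matched in the labels served as blocks for the lines and for LIF, and for d16 against d8 as an alternative.

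Between cultures and primed cells, member calls went from 12 to 7 with only the groups compared in the fit, and between d16+10p and d16+2–3p from 6 to 10. With AICAR, 1 call became 2 by DESeq2 and 2 by limma voom (adding Fnip2), 6 without a filter, and 0 with at least 10 counts in every library (41 rows tested), without the day term or without the 3 libraries of lowest totals. Between d16 and d8, 14 became 8 with the 4 treatments as block and 9 without those 3 libraries. Ctsd was lower in reverted d16+10p than in primed cells only with those groups alone (−0.75 log2 units, adjusted p = 0.0135) and without the 3 libraries (−0.71 log2 units, adjusted p = 0.0244).

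Leaving out each library in turn gave 17 to 23 calls between reverted d16+10p and primed cells, 9 to 13 between cultures and primed cells, 34 to 39 between reverted cells and cultures, 2 to 6 between passages, 0 to 5 for AICAR, 3 to 15 between days, 0 to 2 between lines and 0 to 0 for LIF. The AICAR count was 0 without Basal d8, 2iL d8, AICAR d8, AICAR+LIF d8, Basal d16 or AICAR+LIF d16, and 5 without 2iL d16. Over the calls named, 1046 alternative values kept the call, 120 lost it and 0 reversed. Some members without a call gained one under an alternative, as given for Flcn and Lamp1. The cause of these shifts was not tested.

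Counts over all genes moved by more than 1.5 times as follows. With only the groups compared, cultures against primed cells went from 7032 to 4595 and the passages from 1753 to 3002. AICAR went from 1347 to 2140 by DESeq2, 3143 without a filter, 37 without the day term and 0 without the 3 libraries of lowest totals. The lines went from 15 to 220 by DESeq2, 929 without a filter, 4 with the stricter filter, 0 without the block and 3 without the low libraries, and LIF from 0 to 220 without a filter. Both AICAR-treated d8 cultures are among the 3 libraries of lowest totals, which limits the precision at d8.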
